A study of Mus musculus with 8 samples.

Results

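The 31 genes described here encode parts of the epithelial basement membrane and of the hemidesmosome. They were chosen by name from the 55276 gene symbols of the count table, as the listed laminin chains, collagens IV, VII and XVII, nidogens, heparan sulfate proteoglycans, Fraser complex proteins, plaque proteins and surface receptors. The choice used their names and no threshold on the data, but it was made with earlier results of these data known. All 31 were found in the table. The cells came from the esophageal epithelium of C57BL6 mice aged 14 to 15 weeks, 2 female and 2 male, for which no transgene or drug is stated, and their RNA was sequenced in bulk. The epithelial layer was peeled from the muscle and digested with dispase and trypsin, and cells that excluded DAPI and carried integrin beta-1 were sorted by Cyto-ID, a dye that stains autophagic vesicles. Each animal gave 1 Cyto-ID Low and 1 Cyto-ID High library, so that there were 4 libraries per fraction. The series title asks how basal cells with many autophagic vesicles differ from the others in proliferation and self-renewal.

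A basement membrane is a thin sheet of matrix under the epithelium in which networks of laminin trimers and of collagen IV are joined by nidogens and perlecan. Basal keratinocytes of stratified epithelia such as the esophagus attach to it through hemidesmosomes, in which integrin alpha-6 beta-4 and collagen XVII bind laminin-332 outside the cell and plectin and dystonin connect them to keratin filaments inside. Collagen VII forms the anchoring fibrils that fasten the sheet to the stroma. Lama3 and Lamb3 encode chains of laminin-332, and inherited loss of these genes, of COL7A1 or of COL17A1 causes skin blistering. Suprabasal keratinocytes have left the basement membrane.

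Libraries held 26285150 to 29301054 counts. Levels are given as CPM, the counts of a gene divided by the library total and multiplied by 1e6, after TMM scaling (trimmed mean of M values). Both fractions were gated on integrin beta-1, but their layer markers differed. The summed level of 8 basal keratinocyte markers was 19064.6 to 22436.5 CPM in the Low and 2635.1 to 4254.9 in the High libraries, and that of 10 suprabasal markers 9716.2 to 26914.4 and 144743.7 to 245665.2. All 8 basal markers were lower in Cyto-ID High, and 9 of the 10 suprabasal markers were higher (edgeR's quasi-likelihood test with sex as a covariate, Benjamini-Hochberg adjusted p under 0.05). Since the RNA is from bulk samples, fewer basal cells in a fraction and less of these RNAs per cell cannot be told apart. The High library of Male2 had the lowest sums of fibroblast, endothelial and leukocyte markers. Its 10 fibroblast markers summed to 42.3 CPM, against 154.0 to 480.7 in the other High and 324.2 to 521.2 in the Low libraries. Its 10 endothelial markers summed to 23.7 CPM, against 35.1 to 63.4 in the other High and 36.8 to 61.0 in the Low libraries, and its 10 leukocyte markers to 21.3 CPM, against 32.1 to 80.9 and 32.6 to 50.4. Flt1 made up 18.3 CPM of the former sum, and Cd68, called higher in Cyto-ID High (log2 fold change 2.13), 19.3 CPM of the latter. The High library of Male2 had 399.7 CPM of 10 smooth muscle and mural markers, within the 285.2 to 456.4 of the other High libraries. Notch3, itself called higher in Cyto-ID High (log2 fold change 2.59), made up 391.9 CPM of this sum. Its 8 Schwann and glial markers summed to 162.2 CPM, within 129.0 to 171.8, of which Mbp made up 158.5. These sums therefore say little of the other markers in the lists. The median marker of these lists in the High library of Male2 was at −2.78 and −2.52 on the log2 scale against the Low library of Male2. Its 10 skeletal muscle markers summed to 5.71 CPM, against 29.6 to 79.4. Of the fibroblast, endothelial and leukocyte lists Kdr, Cd3e and Cd4 were at 0 there, while in each list the other markers were detected.

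Most basement membrane and hemidesmosome RNAs were lower in the Cyto-ID High fraction. Of the 31 genes, 26 were abundant enough to be tested, 17 were called lower and 0 higher, and 9 did not pass the test. Over all 17344 genes tested, 25.3% were called lower and 23.4% higher. No member was higher at an unadjusted p under 0.05 in edgeR, and none was called higher by DESeq2 or limma-voom. The median log2 fold change was −1.70 over the 26 tested members and −0.09 over all tested genes. All 17 called members were lower in each of the 4 animals, and in each of them every Low library lay above every High library. Among all tested genes 24.9% showed this separation. The fall was at least 4-fold in 12 members and at least 8-fold in 8. Summed over the 31 genes, the level was 5545.7 to 6644.0 CPM in the Low and 774.6 to 1227.0 in the High libraries. The 17 calls and their direction were also found without the High library of Male2. Scaling by total counts only shifted the median of all genes by −0.55 and the share of higher genes among those called from 48.0% to 20.5%. Under it all 17 stayed lower, and Fras1, Dag1 and Cd151 joined them.

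**Figure D1:**
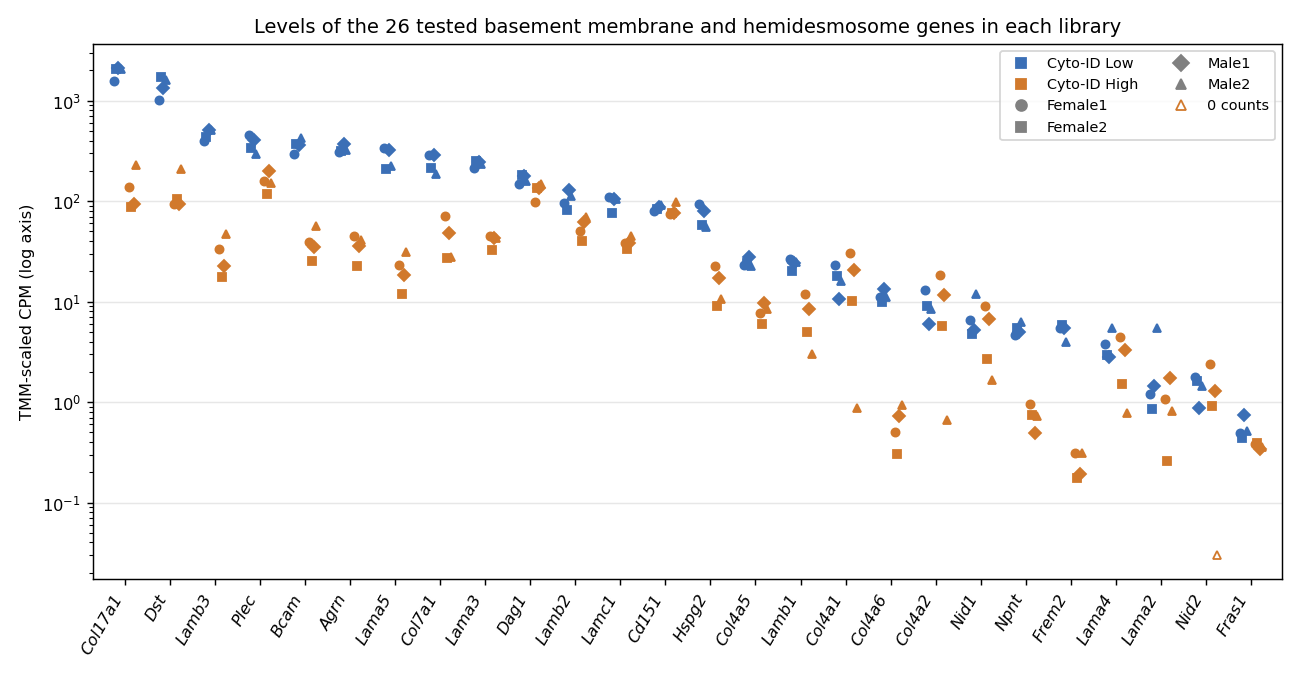
TMM-scaled CPM of the 26 tested genes in each of the 8 libraries on a log axis, ordered by their mean in Cyto-ID Low, with colour for the fraction and symbol shape for the animal. In the 17 genes that were called lower the Low and High points do not overlap, and the High point of Male2 lies far below the others for Col4a1, Col4a2 and Nid2, the last of which had 0 counts there and is drawn at the bottom as an open symbol.

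**Figure D2:**
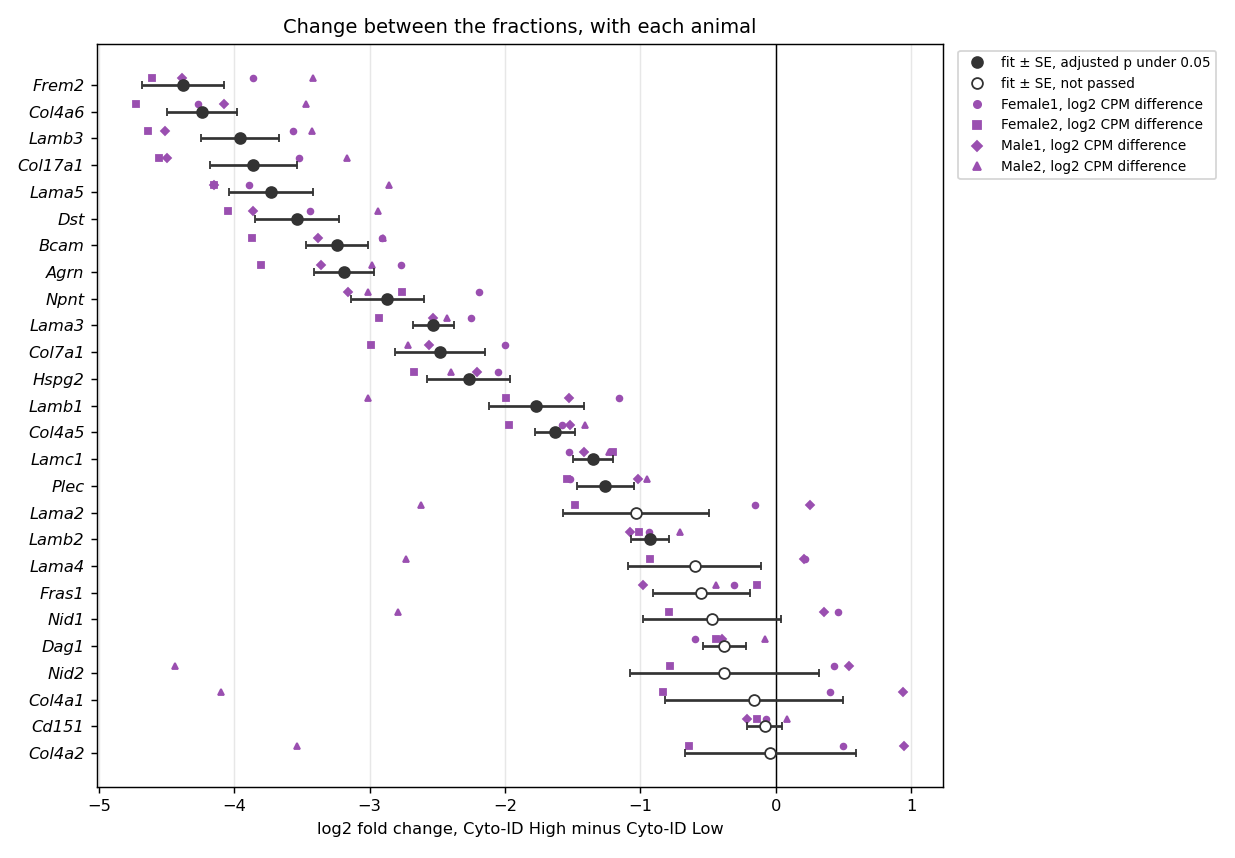
Fitted log2 fold change of High against Low with its standard error for the 26 tested genes, and above each the difference in log2 CPM within each of the 4 animals. The fitted values run from −4.38 for Frem2 to −0.04 for Col4a2, and the 4 animals scatter widely in Col4a1, with differences from −4.10 to 0.94, and little in Cd151, from −0.21 to 0.08.

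The laminin chains of the epithelium gave the first group. Laminin trimers hold 1 alpha, 1 beta and 1 gamma chain. Lamb3, the beta chain of laminin-332 (chr1:193207699-193343878, plus strand, GRCm38), stood at 397.9, 436.9, 513.8 and 506.7 CPM in the Low libraries of Female1, Female2, Male1 and Male2 and at 33.5, 17.5, 22.5 and 46.9 in the High libraries, in the same order as used below. It fell 15.5-fold (log2 fold change −3.96, SE 0.29, edgeR adjusted p 1.42e-05). The lowest Low library was thus far above the highest High library. Falls and rises below are log2 fold changes of High against Low unless given as fold.

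Lama3, the alpha chain of laminin-332 (chr18:12333819-12583013, plus strand), had 212.2, 251.0, 246.0 and 231.7 CPM in Low and 44.6, 32.8, 42.5 and 42.9 in High. It fell by 2.53 (SE 0.15, edgeR adjusted p 1.27e-05). The fractions did not overlap, and Female2 was below the other 3 High libraries, which were close to each other. Lama3 uses several start sites, and the table does not tell its long and short transcripts apart.

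Lama5, the alpha chain of laminin-511 and laminin-521, the other main laminins under epithelia (chr2:180176373-180225859, minus strand), stood at 340.7, 210.8, 323.2 and 226.4 CPM in Low and 23.0, 11.8, 18.2 and 31.0 in High. It fell by 3.73 (SE 0.31, edgeR adjusted p 1.91e-05). Its partner Lamc1, the gamma chain shared by most laminins, had 109.8, 76.2, 103.9 and 106.0 CPM in Low and 38.0, 33.2, 38.7 and 45.3 in High, a smaller fall of 1.35 (SE 0.15, edgeR adjusted p 7.41e-05). The beta chains that pair with them also fell by less. Lamb1 went from 24.0 ± 2.7 to 7.07 ± 3.85 CPM (log2 fold change −1.77, SE 0.35, edgeR adjusted p 0.00217), with its lowest value, 3.04, in the High library of Male2. Lamb2 went from 105.1 ± 21.4 to 55.2 ± 12.9 CPM (log2 fold change −0.93, SE 0.14, edgeR adjusted p 0.000413; SD, n = 4 each), the smallest fall among the 17.

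The bases just before the start of Lama5 are shown because it is, with Frem2 and Col4a6 below, one of the 3 members with the largest fall among those with 1 listed start and an upstream window free of annotated exons. Each window holds the 250 bases before the RefSeq start, on the strand of the gene (RefSeq, GRCm38.p6; Lama5 at chr2:180225860-180226109, minus strand). Capitals mark matches on either strand to 4 short motifs, the AP-1 site TGANTCA, the GC box GGGCGG, the TEAD site GGAATG and the p63 half-site, which were searched without regard to overlap between them. The Lama5 window held 4 GC boxes and no match to the other motifs.
Lama5: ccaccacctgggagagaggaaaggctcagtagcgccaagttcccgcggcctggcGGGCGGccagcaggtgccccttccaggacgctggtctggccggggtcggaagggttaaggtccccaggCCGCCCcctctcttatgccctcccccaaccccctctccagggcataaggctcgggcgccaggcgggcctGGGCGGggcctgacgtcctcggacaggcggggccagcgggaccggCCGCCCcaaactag

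Laminin chains known mainly from other tissues were scarce in both fractions. Lama1 and Lamc3 had at most 11 counts in any library and were not tested. Lama2, the alpha chain of muscle and nerve laminin, had 2.22 ± 2.13 CPM in Low and 0.970 ± 0.603 in High (SD, n = 4 each; log2 fold change −1.03, SE 0.54, edgeR adjusted p 0.151). Its value depended on single libraries. It was −1.57 without the High library of Female1 (adjusted p 0.0427), −0.37 without the Low library of Male2 (adjusted p 0.643) and −0.23 without both Male2 libraries (adjusted p 0.756). Without a filter on low counts it was −1.08 (adjusted p 0.0183), and in the other alternatives it did not pass. Lama4, the alpha chain of vessel and stromal laminin, had 3.78 ± 1.24 and 2.5 ± 1.66 CPM and did not pass either (−0.60, SE 0.49, edgeR adjusted p 0.351).

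The collagen IV genes come as 3 head-to-head pairs, and the pairs differed. Collagen IV is the network-forming collagen of all basement membranes. Chains 1 and 2 form the common trimer, chains 5 and 6 a trimer found under some epithelia and around smooth muscle, and chains 3 and 4 join chain 5 mainly in kidney, lung and inner ear. Col4a6 (chrX:141165403-141474076, minus strand) stood at 11, 9.84, 13.3 and 11 CPM in Low and 0.502, 0.305, 0.724 and 0.926 in High, where it had 7 to 19 counts. It fell by 4.24 (SE 0.26, edgeR adjusted p 1.27e-05), an 18.9-fold change. Its neighbour Col4a5 (chrX:141475385-141689234, plus strand), whose RefSeq start lies 1343 bases away on the opposite strand, had 23.2, 24.0, 27.7 and 22.7 CPM in Low and 7.68, 6.05, 9.61 and 8.49 in High. It fell by 1.63 (SE 0.15, edgeR adjusted p 3.12e-05). Both genes were lower in every animal, Col4a6 by far the more.
Col4a6: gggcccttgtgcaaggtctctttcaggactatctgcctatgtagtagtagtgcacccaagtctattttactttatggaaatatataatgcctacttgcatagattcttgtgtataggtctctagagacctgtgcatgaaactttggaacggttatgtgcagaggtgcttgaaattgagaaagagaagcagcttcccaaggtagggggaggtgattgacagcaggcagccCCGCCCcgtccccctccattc

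This Col4a6 window (chrX:141474077-141474326, minus strand) faces Col4a5 and held 1 GC box and no match to the other 3 motifs.

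Col4a1 and Col4a2 did not pass the test. Col4a1 (chr8:11198423-11312826, minus strand) stood at 23.3, 17.9, 10.7 and 16.1 CPM in Low and 30.7, 10.1, 20.5 and 0.875 in High (log2 fold change −0.16, SE 0.66, edgeR adjusted p 0.873). Col4a2 (chr8:11312805-11449287, plus strand) stood at 13.1, 8.99, 5.96 and 8.51 CPM in Low and 18.6, 5.75, 11.6 and 0.669 in High (−0.04, SE 0.63, edgeR adjusted p 0.971). In both genes the High library of Female1 was the highest of the 8 and that of Male2 the lowest by far, with 17 and 13 counts, so the fractions overlapped. Without the High library of Male2 the log2 fold changes were 0.24 and 0.36, and neither passed. Their first exons overlap by 22 bases on opposite strands (chr8:11312805-11312826, plus strand, RefSeq starts), which are shown as the point from which both are transcribed (capitals mark a GC box); how reads there were assigned is not given in the sources used here.
Col4a1 and Col4a2: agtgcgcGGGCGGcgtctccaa

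Col4a3 and Col4a4 had at most 9 counts in any library and were not tested.

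The nidogens, which bridge the laminin and collagen IV networks, did not pass the test either. Nid1 had 6.49, 4.73, 5.22 and 11.8 CPM in Low and 8.95, 2.7, 6.71 and 1.65 in High (log2 fold change −0.47, SE 0.51, edgeR adjusted p 0.492). Nid2 had 1.76, 1.62, 0.870 and 1.45 CPM in Low and 2.39, 0.914 and 1.30 in the High libraries of Female1, Female2 and Male1 (−0.38, SE 0.70, edgeR adjusted p 0.702). In the High library of Male2 it had 0 counts, which allows up to 3 counts or 0.154 CPM. The exons of Nid2 share 437 bases with Rtraf on the opposite strand, and without stranded counting their reads cannot be told apart there.

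Within the animals, the differences of these genes had the same signs as those of markers of non-epithelial cells. The difference in log2 CPM, High minus Low, of Col4a1 was 0.40 in Female1, then −0.83 (Female2), 0.94 (Male1) and −4.10 (Male2). For Nid2 it was 0.43, −0.78, 0.54 and −4.44. The median difference of the 10 fibroblast markers was 0.21, −0.86, 0.59 and −3.40, that of the 10 endothelial markers 0.18, −0.92, 0.45 and −3.33, and that of the 8 tested leukocyte markers 0.23, −1.0, 0.60 and −3.34. Col4a2, Nid1 and Lama4 had the same order of signs over the 4 animals, and Lama2 differed from it in Female1, where it was −0.15. Of the fibroblast markers 1 of 10 was called between the fractions, Dcn (−2.87), and of the endothelial markers 0 of 10, with 1 lower at an unadjusted p under 0.05 (Esam) and 0 called by DESeq2 or limma-voom. The part of these cells in the levels of collagen IV and nidogen was not tested. The 17 called members had differences below 0 in each animal, from −0.71 for Lamb2 in Male2 to −4.73 for Col4a6 in Female2. Among them Lamb1 was lowest in Male2, as the markers were, at −3.01 against −1.99 to −1.16 in the other animals.

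**Figure D3:**
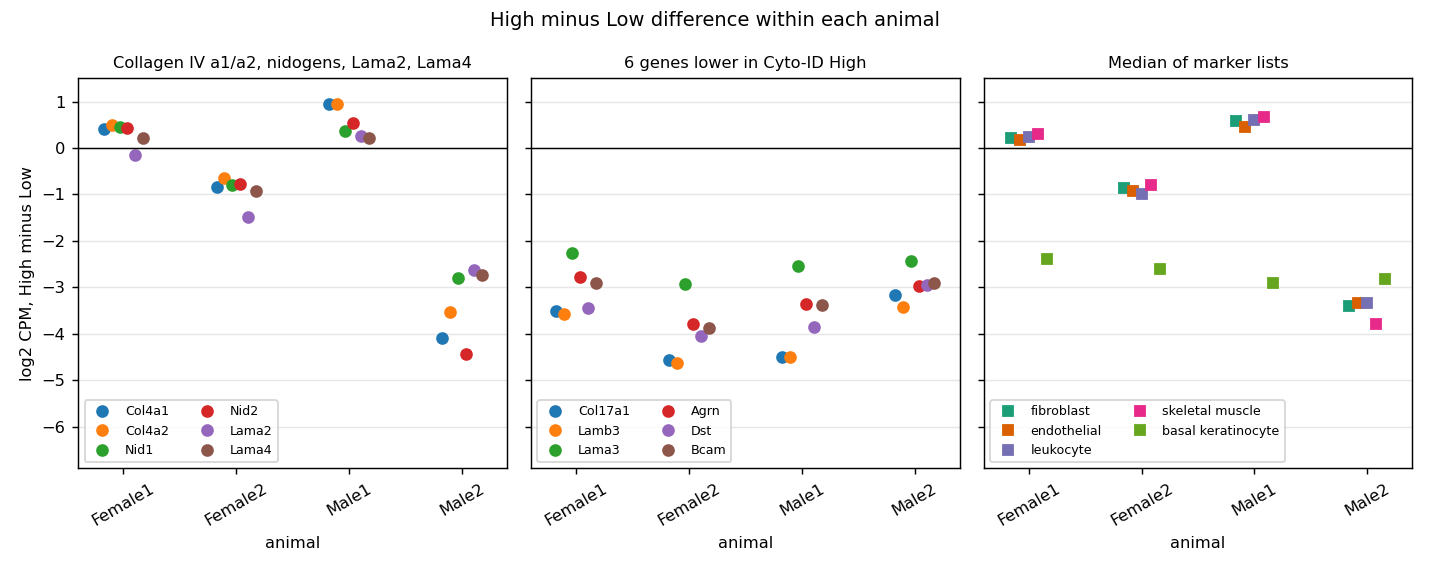
Difference in log2 CPM, High minus Low, within each animal for 6 members that did not pass the test (left), 6 of the 17 that were called lower, picked for display (middle) and the medians of 5 marker lists (right). Col4a1, Col4a2, Nid1 and Nid2 are above 0 in Female1 and Male1 and below 0 in Female2 and Male2, as are the fibroblast, endothelial, leukocyte and skeletal muscle markers, while the genes in the middle are below 0 in all 4 animals.

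Anchoring collagens were lower in Cyto-ID High. Col17a1, the transmembrane collagen of the hemidesmosome (chr19:47646344-47692094, minus strand), was the most abundant member in Low, at 1580.6, 2063.6, 2100.6 and 2062.5 CPM, and stood at 137.6, 87.4, 92.9 and 228.8 in High. It fell by 3.86 (SE 0.32, edgeR adjusted p 1.83e-05), or 14.5-fold. Female1 was the lowest Low library and Male2 the highest High library, and the fractions were far apart. Col7a1, the collagen of the anchoring fibrils (chr9:108953586-108984875, plus strand), had 286.7, 215.1, 286.9 and 185.2 CPM in Low and 71.8, 27.1, 48.7 and 28.0 in High. It fell by 2.48 (SE 0.33, edgeR adjusted p 0.000199), with the largest drop in Female2.

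The heparan sulfate proteoglycans perlecan and agrin, which bind laminin and hold growth factors in the sheet, fell too. Agrn (chr4:156165290-156197488, minus strand) had 306.0, 315.3, 367.2 and 326.7 CPM in Low and 44.8, 22.6, 35.6 and 41.2 in High, a fall of 3.19 (SE 0.22, edgeR adjusted p 1.33e-05). Hspg2, which encodes perlecan, had 94.6, 57.8, 79.1 and 55.6 CPM in Low and 22.8, 9.06, 17 and 10.5 in High, a fall of 2.27 (SE 0.31, edgeR adjusted p 0.000235). In both genes the fractions were well apart, and Female2 was the lowest High library.

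Fraser complex genes were present at low levels, and only Frem2 of the 3 was called. FRAS1, FREM1 and FREM2 form a complex that holds epithelium to the dermis during development, and nephronectin, encoded by Npnt, is a matrix ligand of integrin alpha-8 beta-1. Frem2 (chr3:53513938-53657355, minus strand) had 5.44, 5.88, 5.41 and 3.98 CPM in Low and 0.309, 0.174, 0.191 and 0.309 in High. Its fall of 4.38 (SE 0.30, edgeR adjusted p 1.33e-05), or 20.8-fold, was the largest among the tested members, and rests on 4 to 8 counts in each High library. Npnt had 4.66, 5.42, 5.00 and 6.28 CPM in Low and 0.965, 0.740, 0.496 and 0.720 in High, a fall of 2.87 (SE 0.27, edgeR adjusted p 2.88e-05). Fras1 had 0.494, 0.440, 0.746 and 0.513 CPM in Low and 0.386, 0.392, 0.343 and 0.360 in High. Every Low library was above every High library, yet with 7 to 24 counts per library the change did not pass (−0.55, SE 0.36, edgeR adjusted p 0.244). Frem1 had at most 5 counts and was not tested.

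The window before Frem2 (chr3:53657356-53657605, minus strand) held 1 TEAD match, at positions −200 to −195 from the start, and 1 p63 half-site, at −222 to −213.
Frem2: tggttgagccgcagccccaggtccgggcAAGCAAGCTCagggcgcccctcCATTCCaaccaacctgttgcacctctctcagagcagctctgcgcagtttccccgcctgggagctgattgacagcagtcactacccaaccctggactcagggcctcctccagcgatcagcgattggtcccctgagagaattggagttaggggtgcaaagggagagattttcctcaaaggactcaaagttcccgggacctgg

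RefSeq windows were matched for 22 of the 31 genes, 29 windows in all, of which 12 lay in no exon of the GENCODE M21 annotation. The AP-1 motif matched 0 of the 29 windows, against 6.75% of 32851 windows of the same length over all genes. The GC box matched 15 of the 29, against 32.7% of all windows. TEAD matched 3 (Lamb3, Nid1 and Frem2), against 12.6%, and the p63 half-site 3 (Nid1, Frem2 and Cd151), against 7.13%. These matches describe the letters only. Col4a3, Fras1, Lama1, Lama3, Lama4, Lamc1, Lamc3, Nid2 and Plec had no entry.

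In the plaque, dystonin fell by more than plectin. Dst, whose epithelial isoform is the plaque protein BP230 (chr1:33908225-34308661, plus strand), had 1025.7, 1733.1, 1348.7 and 1607.2 CPM in Low and 94.2, 104.6, 92.7 and 209.4 in High. It fell by 3.54 (SE 0.31, edgeR adjusted p 2.21e-05). Male2 was above the other High libraries, as in Col17a1, and far below every Low library. Plec, the plectin gene (chr15:76170974-76232574, minus strand), had 453.1, 341.4, 409.7 and 293.7 CPM in Low and 157.8, 117.2, 201.8 and 151.5 in High, a fall of 1.26 (SE 0.21, edgeR adjusted p 0.000849). Neural, muscle and epithelial isoforms of Dst, and the many isoforms of Plec, are summed in the table. Exons of Dst share 1037 bases with Gm26788 on the other strand and exons of Plec share 205 bases with Parp10 on the same strand.

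The surface receptors split. Bcam, a laminin alpha-5 receptor of the immunoglobulin family (chr7:19756131-19771016, minus strand), had 292.7, 374.8, 363.6 and 426.4 CPM in Low and 38.9, 25.6, 34.8 and 57.0 in High, a fall of 3.24 (SE 0.23, edgeR adjusted p 1.33e-05). Cd151, a tetraspanin that binds laminin-binding integrins (chr7:141467392-141471473, plus strand), had 79.1, 83.7, 88.2 and 92.5 CPM in Low and 75.2, 76.1, 76.0 and 97.4 in High. Its libraries overlapped and the change did not pass (−0.08, SE 0.13, edgeR adjusted p 0.643), but with total counts only it was −0.65 (adjusted p 0.000579). Dag1, which encodes dystroglycan, a receptor that binds laminin, perlecan and agrin through its sugar chains, had 149.0, 183.7, 178.3 and 158.1 CPM in Low and 98.2, 135.3, 135.1 and 149.3 in High. It was lower in all 4 animals, with 1 High library, Male2, above the lowest Low library. With sex as a covariate the change did not pass (−0.38, SE 0.16, edgeR adjusted p 0.0789). When the animal was fitted as a replicate block, replacing sex, it did (−0.38, edgeR adjusted p 0.0378), as it did without the Low library of Female1 (adjusted p 0.045), with a filter of 10 counts in every library (adjusted p 0.0266) and with total counts only (−0.95, adjusted p 0.000408). In the blocked fit 18 members were called lower and 0 higher, against 28.5% and 25.4% of all genes.

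Per kilobase of exon the order of the members differed between the fractions. In Low, Col17a1 led with 324.7 CPM per kb, followed by Bcam with 113.9 and Lamb3 with 70.1. In High, the highest means were those of Cd151 (29.6 CPM per kb), Col17a1 (22.7) and Dag1 (20.4), and their order varied between libraries. In Male2 Col17a1 (38.1) was above Cd151 (35.5), and in Female2 and Male1 Dag1 (21.3 in both) was above Col17a1 (14.5 and 15.5). By the means Cd151 stood at 31.3 CPM per kb in Low and moved from the sixth to the first place as the genes above it fell. Lengths are the union of all annotated exons, which for Dst comes to 41.2 kb with isoforms of other tissues included, so that its value of 34.7 CPM per kb in Low is an underestimate.

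Pairs of members were compared as ratios of counts within a library, which do not depend on the scaling between libraries. Some pairs are parts of 1 assembly, and others are related members of different assemblies, such as Lama3 and Lama5. In total 17 pairs were compared by an exact two-sided permutation test of 4 against 4 libraries, whose smallest p is 0.0286. All 10 pairs with a full separation of the fractions had an exact p of 0.0286 and a Benjamini-Hochberg adjusted p of 0.0486. Through the adjustment this value depends on how many pairs reach the smallest p. The adjusted p was above 0.05 in all 10 pairs when any 1 Low library was left out, although their fractions stayed apart. A paired permutation over 4 animals cannot pass, since its smallest p is 0.13.

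Within laminin-332, the ratio of Lama3 to Lamb3 was 0.457 to 0.575 in Low and 0.914 to 1.89 in High, a difference in log2 ratio of 1.5 that was positive in 4 of 4 animals (exact permutation, adjusted p 0.0486). Lamb3 thus fell by more than Lama3. Lamb3 to Lamb2 went from between 3.94 and 5.41 to between 0.365 and 0.677 (−3.11, exact permutation, adjusted p 0.0486). Per kilobase of exon, Lamb3 was above Lamb2 in Low, at 70.1 against 17.3 CPM per kb, and below it in High, at 4.55 against 9.08. Lama5 to Lamc1 went from between 2.13 and 3.11 to between 0.357 and 0.685 (−2.42, exact permutation, adjusted p 0.0486). Lama3 to Lama5 rose by 1.23 (exact permutation, adjusted p 0.0486).

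Col4a5 to Col4a6 was 2.06 to 2.43 in Low and 8.95 to 18.6 in High (2.63, exact permutation, adjusted p 0.0486). Col4a1 to Col4a2 varied little, from 1.78 to 1.99 in Low and from 1.30 to 1.77 in High. Its difference was −0.21 (exact permutation, adjusted p 0.0486), and −0.11 without the High library of Male2, where the adjusted p was 0.139. Dst to Plec went from between 2.26 and 5.47 to between 0.459 and 1.38 (−2.31), and Cd151 to Bcam from between 0.217 and 0.270 to between 1.71 and 2.96 (3.18), both with an adjusted p of 0.0486 in the exact permutation test. Fras1 to Frem2 rose by 3.81 (exact permutation, adjusted p 0.0486), with 4 to 8 counts of Frem2 in the High libraries. The ratio of Frem1 to Frem2 also separated the fractions, but with 0 to 5 counts of Frem1 it is not read here. Of the 7 pairs that did not pass, Hspg2 to Agrn differed by 0.90 and Lamb3 to Lamb1 by −2.11 (exact permutation, adjusted p 0.081 each), and Col7a1 to Col17a1 by 1.37 (adjusted p 0.104 in the same exact test). Without the High library of Male2 the last of these reached 1.83 with an adjusted p of 0.0405, and Lamb3 to Lamb1 reached −2.7 and Col4a1 to Col4a5 1.84 with the same adjusted p, the last from 0.72 (adjusted p 0.637) with all libraries. Lamb1 to Lamb2 differed by −1.0 (adjusted p 0.104) and, without the High library of Female1, by −1.34 (adjusted p 0.0442 in the exact permutation test). With a pseudocount of 2, Lamb3 to Lamb1 passed as well (−2.12, adjusted p 0.0442).

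**Figure D4:**
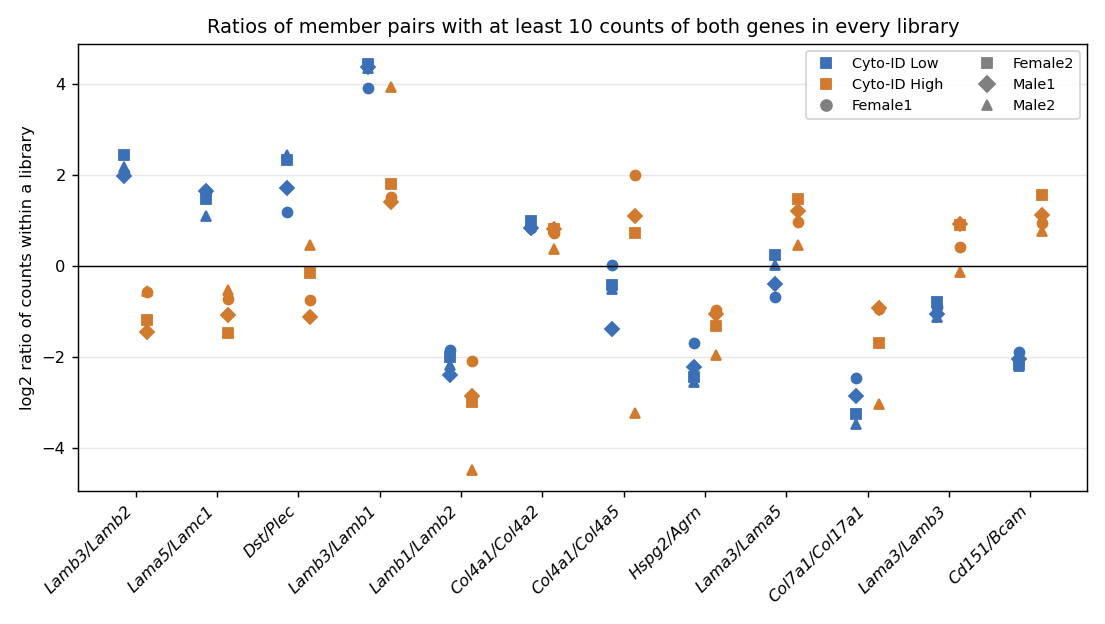
Log2 ratio of counts within each library for the 12 pairs in which both genes had at least 10 counts everywhere, ordered by the difference between fractions, with colour for the fraction and symbol shape for the animal. The fractions are apart for Lamb3/Lamb2, Lama5/Lamc1, Dst/Plec, Lama3/Lamb3 and Cd151/Bcam, and by a narrow gap for Lama3/Lama5 and Col4a1/Col4a2. The High library of Male2 stands apart from the other 3 for Lamb3/Lamb1, Lamb1/Lamb2, Col4a1/Col4a5 and Col7a1/Col17a1.

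Receptors and hemidesmosome partners of these proteins were mostly lower in Cyto-ID High. Of 19 genes in this list, all tested, 10 were called lower (52.6%) and 3 higher (15.8%), with a median log2 fold change of −0.51. Within the animals the median difference was −0.35, −0.93, −0.55 and −2.76 (Female1, Female2, Male1, Male2), and without both Male2 libraries 11 of the 19 were called. Itga7 (−5.42 in Male2) and Ddr2 (−4.14), named after their values were seen, did not pass and were low in the High library of Male2, as the fibroblast markers were, whose part in these values was not tested. The shares over all genes tested were 25.3% and 23.4%. The hemidesmosomal integrin subunits both fell, Itgb4 from 951.5 ± 61.8 to 78.3 ± 31.3 CPM (−3.62, SE 0.27, edgeR adjusted p 1.48e-05) and Itga6 from 450.0 ± 37.7 to 63.8 ± 10.0 (−2.82, SE 0.17, edgeR adjusted p 1.27e-05; SD, n = 4 each). Both are also basal markers in the list above. Itga3, which pairs with beta-1 to bind laminin-332 and laminin-511, fell by 3.57 (SE 0.24, edgeR adjusted p 1.31e-05). Itgb1, whose protein was used to gate both fractions, fell by 2.44 (SE 0.21, edgeR adjusted p 2.16e-05), and the basal keratin Krt5 by 3.38. The 3 higher genes were the tetraspanin Tspan15 (1.46, SE 0.16, edgeR adjusted p 7.02e-05), the syndecan Sdc1 (1.07, SE 0.14, edgeR adjusted p 0.000223) and the tetraspanin Cd9 (0.43, SE 0.16, edgeR adjusted p 0.0456). Under total counts Tspan15 and Sdc1 stayed higher, whereas Cd9 was −0.14 and did not pass. Cd9 also lost its call without both Male2 libraries (0.52, adjusted p 0.0707), without a filter on low counts (0.39, adjusted p 0.218) and without any 1 library other than the Low library of Male2 (0.34 to 0.47, adjusted p 0.0569 to 0.11).

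Among 28 other basement membrane components, 26 were tested, 12 were called lower (46.2%) and 0 higher, against 25.3% and 23.4% of all genes, with a median of −1.04. Within the animals the median difference was −0.59, −1.28, −0.51 and −2.74, lowest in Male2, and 12 were called without both Male2 libraries. Col15a1, Sparc, Fbln2, Fbln5 and Pxdn, also named after their values were seen, did not pass and had the signs of the fibroblast markers in each animal, with −2.99 to −4.47 in Male2, and the part of those cells was not tested. At an unadjusted p under 0.05 in edgeR 2 were higher, Smoc1 and Grip1, and of these DESeq2 called Grip1 and limma-voom Smoc1. Smoc2, a calcium-binding matrix protein, fell from 206.4 ± 48.4 to 9.59 ± 4.84 CPM (−4.44, SE 0.35, edgeR adjusted p 1.71e-05; SD, n = 4 each). Ntn4, a laminin-related netrin that can disrupt laminin networks, fell by 2.95 and Papln, papilin, by 2.84 (edgeR adjusted p 0.000154 and 2.04e-05).

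Genes that modify, fold and export collagen and laminin were called in both directions. Of 28 genes 27 were tested, 10 were called lower (37.0%) and 7 higher (25.9%), against 25.3% and 23.4% of all genes, so that the share called higher was near that of all genes. The median log2 fold change was −0.41. That median was not shared by the animals, at −0.06, −0.63, 0.08 and −1.53, and was lowest in Male2, where the fibroblast and endothelial markers were lowest too. The part of those cells in these values was not tested. Without both Male2 libraries the count of called genes was 17 again. Serpinh1, the collagen chaperone HSP47, fell from 160.4 ± 30.7 to 18.6 ± 8.6 CPM (−3.11, SE 0.32, edgeR adjusted p 4.97e-05; SD, n = 4 each). Plod3, a lysyl hydroxylase that also glycosylates collagen IV, fell by 2.32 (edgeR adjusted p 1.40e-05) and Loxl4, of the lysyl oxidase family, by 4.32 (edgeR adjusted p 2.11e-05). P4hb, which is the beta subunit of prolyl hydroxylase and a general protein disulfide isomerase, rose from 465.1 ± 70.6 to 2166.5 ± 208.3 CPM (2.22, SE 0.18, edgeR adjusted p 1.83e-05). Sec23a, a coat protein of secretory vesicles, rose by 1.08 and Fkbp10, a collagen chaperone, by 1.03 (edgeR adjusted p 0.00139 and 0.00246). Under total counts P4hb and Sec23a stayed higher, and Fkbp10 did not pass (0.47).

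For dystroglycan, whose sugar chains are built by a series of enzymes, 22 of 24 listed glycosylation enzymes and partners were tested, 13 were called lower (59.1%) and 4 higher (18.2%), against 25.3% and 23.4% of all genes, with a median of −0.78. Large2, which extends the laminin-binding sugar, fell from 86.2 ± 11.1 to 9.62 ± 2.51 CPM (−3.17, SE 0.18, edgeR adjusted p 1.27e-05; SD, n = 4 each). Among the adapter proteins Sntb2 fell by 2.59 and Dtnb by 1.75, while Sntb1 rose by 1.30 (edgeR adjusted p 1.27e-05, 4.46e-05 and 0.000434). The enzyme gene Pomgnt2 rose by 1.33 (edgeR adjusted p 0.000347). Under total counts Pomgnt2 and Sntb1 stayed higher.

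Of 27 proteases and inhibitors that act on basement membranes, 25 were tested, 8 were called lower (32.0%) and 3 higher (12%), against 25.3% and 23.4% of all genes, with a median of −0.21. Within the animals the median difference was 0.06, −0.53, 0.26 and −1.80, with the signs of the fibroblast and endothelial markers, whose part was not tested. Without both Male2 libraries the count of called genes was 11 again. Mmp14, a membrane-bound metalloprotease that activates MMP2, fell from 130.9 ± 2.6 to 19.3 ± 5.0 CPM (−2.77, SE 0.20, edgeR adjusted p 1.33e-05; SD, n = 4 each). The inhibitor Timp3 fell by 2.42 and the serine protease Htra1 by 2.36 (edgeR adjusted p 0.00071 and 0.000124). Mmp2, a gelatinase that cleaves collagen IV, had 27.7, 33.3, 21.1 and 41.1 CPM in Low and 99.6, 141.7, 116.1 and 195.6 in High and rose by 2.15 (SE 0.26, edgeR adjusted p 0.00012). The fractions did not overlap, and High Male2, which was lowest in fibroblast markers, was the highest of all. The part of fibroblasts in the level of Mmp2 was not tested. Hpse, the heparanase that cuts heparan sulfate, rose by 2.33 and the disintegrin Adam15 by 2.20 (edgeR adjusted p 2.79e-05 and 1.62e-05), and these 3 stayed higher under total counts.

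**Figure D5:**
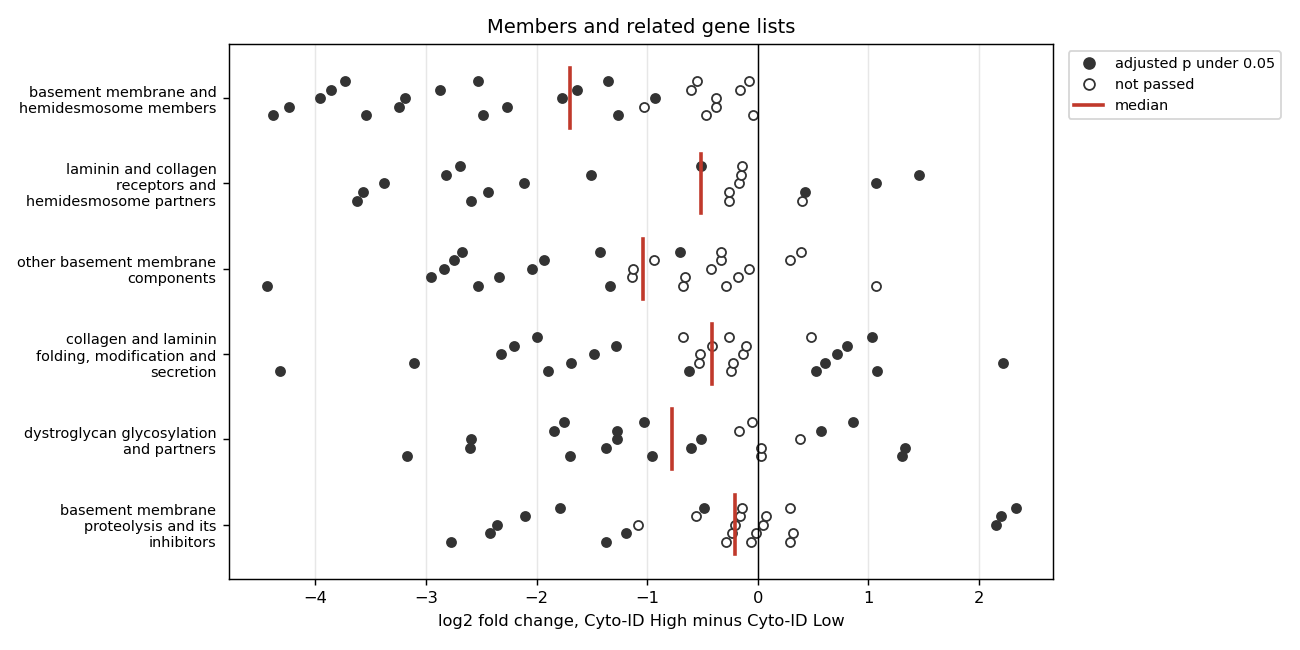
Log2 fold change of every tested gene in the members and 5 related lists, with filled points for an adjusted p under 0.05 and a red line at each median. The medians run from −1.70 in the members to −0.21 in the proteases and inhibitors, and only the members and the other basement membrane components have no filled point above 0.

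The difference between the fractions was compared between the sexes as an interaction. In edgeR's quasi-likelihood test 0 of 17344 genes were called, 19 had an unadjusted p under 0.05, and none of these was a member, whose lowest unadjusted p was 0.133. With 2 animals per sex the precision of this comparison is limited.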

How the data were processed

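The table that the authors deposited holds unnormalized counts, whole numbers of reads per gene symbol, for 8 libraries. STAR 2.7.3, DESeq2 and the build GRCm38 are listed in the submitters' processing notes. The counting tool, annotation, strandedness and molecular identifiers are not given in the sources used here. Animal and fraction in its headers matched each of the 8 columns to a sample, and 0 rows lacked a gene name. Library totals ran from 26285150 to 29301054 counts, and without molecular identifiers the limits that follow from a count of 0 cover counting error only. No 2 libraries of a fraction agreed within sampling noise (chi-square per degree of freedom at least 19.8, where sampling alone gives 1).

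The fit used edgeR 4.0.16 in R 4.3.3. After filterByExpr 17344 genes were tested with glmQLFit and glmQLFTest, with TMM scaling and sex as a covariate, and Benjamini-Hochberg adjustment ran over all of them, with genes called at an adjusted p under 0.05. Differences within an animal use log2 CPM with a prior count of 2. Ratios of member pairs use counts plus 0.5. Positions, exon lengths and overlaps come from GENCODE mouse release M21 (GRCm38) and upstream windows from RefSeq (GRCm38.p6). The members and all gene lists were chosen with earlier results of these data known, so no list was tested as a whole. From each related list up to 3 genes per direction with the largest fold change were named, if they passed the threshold, averaged at least 5 CPM and had the same sign in all 4 animals. Itga6, Itgb4 and Itgb1 were always named. Some genes that the rule names are not reported here.

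Libraries of an animal were taken as pairs because the labels name the animal and 1 cell suspension was sorted into both fractions. Across genes, deviations from the fraction means correlated between the libraries of an animal with r of 0.43, 0.32, −0.02 and 0.28 (Female1, Female2, Male1, Male2), and between different animals with −0.37 to 0.35, the highest between High Male1 and Low Female1, so the pairing rests on the labels. The alternatives were RLE size factors, total counts only, no filter, at least 10 counts in every library, DESeq2 1.42.0, limma-voom (limma 3.58.1), the animal as a replicate block, no covariate, each library left out, both Male2 libraries left out and, for ratios, a pseudocount of 2 and a paired permutation. On simulated counts for this comparison (16919 genes, 200 changed by a log2 fold of 1.5) the fit called 69.5% of the changed genes and 8 others, and the blocked fit 66% and 5. In the data 8440 genes were called, far more than were changed here, so these percentages do not carry over to the data. The simulated counts held no animal effect, so they cannot tell which fit suits paired libraries better.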

Additional observations from a re-analysis of the deposited data

Results flagged for a closer look

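In 5 of the 52 groups of 4 libraries examined, 1 library lay far from the other 3 by Dixon's test, which chance flags in about 1 in 20 groups. Lama3 in the High library of Female2 stood at 32.8 CPM, against 44.6, 42.5 and 42.9 in the other High libraries. Lamc1 in the Low library of Female2 stood at 76.2 CPM, against 109.8, 103.9 and 106.0. Col17a1 in the Low library of Female1 stood at 1580.6 CPM, against 2063.6, 2100.6 and 2062.5. Dst in the High library of Male2 stood at 209.4 CPM, against 94.2, 104.6 and 92.7. Cd151 in the same library stood at 97.4 CPM, against 75.2, 76.1 and 76.0. Lama3, Lamc1, Col17a1 and Dst were called lower whichever library was left out, and Cd151 was not called in any of these fits.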

How the results depend on the processing

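All 17 called members kept their direction and call in each of the 17 alternatives over all genes that gave a value (the filter of 10 counts per library left Col4a6 and Frem2 untested). The number of members called ran from 16 with that filter to 20 with total counts only, and the number of genes called from 7269 to 10708, against 8440. The replicate block (animal) gave 9336 genes and 18 members, Dag1 being added, and no other member's call changed. Of 30 related genes named, 27 kept call and direction, the exceptions including Cd9 (−0.14 under total counts, and no longer called in 9 further alternatives) and Fkbp10. Among members that did not pass, signs changed and the cause was not tested. Without both Male2 libraries Lama4 was 0.00, Col4a1 0.35, Col4a2 0.46, Nid1 0.21 and Nid2 0.21. Col4a2 was also 0.03 with DESeq2, 0.04 with RLE size factors, 0.01 with at least 10 counts and 0.01 with no covariate. With 1 library left out at a time the log2 fold change ran from −1.05 to 0.24 for Col4a1, from −0.82 to 0.36 for Col4a2 and from −0.98 to 0.05 for Nid2, and the difference in log2 ratio from −0.06 to 0.37 for Col4a3 to Col4a4 and from −0.32 to 1.18 for Nid1 to Nid2. The count of pairs whose ratio differed was 0 in the paired permutation with the replicate block, which cannot pass with 4 animals, and ran from 0 to 12 with 1 library left out, 0 being reached with any Low library left out. Depth limits Frem2, Col4a6, Fras1 and the 5 untested members, which have few counts.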
